A study of Rattus norvegicus with 6 samples.

Results

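Nucleotide excision repair, base excision repair and the neighbouring routes that reverse or tolerate DNA damage were followed through 36 genes in the renal cortex of rats given o-nitroanisole. The genes came from a list of named DNA repair genes, and 29 of the 36 were matched to array probes by RefSeq accession, out of 15284 gene symbols matched in all. Ddb1, Ddb2, Ercc4, Ercc5, Rpa1, Lig3 and Rev1 were not matched and are not analysed here. The dosed group held 3 male Sprague-Dawley rats given o-nitroanisole (2-methoxynitrobenzene) at 400 mg/kg/day for 4 weeks, and the control group held 3 male Sprague-Dawley rats given corn oil for 4 weeks. Both groups were bought at 5 weeks of age and kept on the same basal diet. Each rat gave 1 single-colour (Cy3) Agilent array of total RNA from renal cortex, and the labels call the arrays biological replicates.

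Nucleotide excision repair removes bulky adducts: a sensor finds the distorted helix, the TFIIH complex opens it, nucleases cut on both sides and a polymerase refills the gap. Base excision repair removes small base lesions: a glycosylase cuts out the damaged base, the endonuclease APE1 nicks the bare site, and polymerase beta and a ligase close it. Nitroaromatic compounds such as o-nitroanisole can be reduced to hydroxylamines that bind guanine in DNA.

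In o-nitroanisole cortex 8 of the 28 repair genes that could be tested read higher at an unadjusted p under 0.05, against 11.8% of all features in that direction, and 0 read lower, against 7.12% of all features. The 8 were the base excision genes Apex1, Neil1, Ung and Mpg, the nucleotide excision genes Ercc3, Ercc6 and Xpa, and the alkyl transferase gene Mgmt, with differences of 0.18 to 0.55 on the log2 scale. The same 8 were the genes whose o-nitroanisole values all lay above all corn oil values (17.6% of all features did so), and 1 gene, Ogg1, lay wholly below (9.56% of all features). No repair gene passed an adjusted p of 0.05 with limma's default moderation, nor did any of the 32428 features tested (0%). With limma's trend and robust options Apex1 and Mgmt passed it, where 1.61% of all features did, 1.24% in the higher direction. With normexp background correction 0 of the 28 passed it, against 0.278% of all features. The median difference over the 28 genes was 0.09 log2, beside 0.03 over all features tested and 0.04 over the features with a gene symbol. Of the 28, 20 lay above 0, as did 56% of all features. None of the 28 differed by as much as 1 log2 unit.

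Each value is a log2 processed signal less the log2 of its array's 75th percentile, so a probe at that percentile reads 0. Differences are taken as o-nitroanisole less corn oil, and ± is limma's moderated standard error (SE, n = 3 per group). Levels of different probes are not comparable, so each gene is compared only with itself. The summed levels of marker lists add different probes on the linear scale, so the brightest probes weigh most in them. Such a sum does not show a shift of the whole list. The share of probes well above background was 66.4% to 71.5% over the arrays, and arrays correlated at 0.986 to 0.992 over all features. All o-nitroanisole arrays lay on slide 2 and all corn oil arrays on slide 1, so slide and treatment cannot be told apart. In whole cortex, fewer cells of a type and less RNA per cell cannot be told apart either. All 14 proximal tubule markers listed passed the background filter (well above background on all arrays of a group), with summed levels of 2940 to 2990 in o-nitroanisole cortex and 2740 to 2790 in corn oil cortex (units of the array's 75th percentile). At an unadjusted p under 0.05, 5 of these 14 were higher and 2 were lower. Over all features, 11.8% were higher and 7.12% lower at that p. Several marker lists moved beside the repair genes. The lists share genes: Slc4a1 is in both the red blood cell and collecting duct lists, and Aqp1 in both the proximal tubule and medulla lists. Of the red blood cell markers, 9 of 10 tested had an unadjusted p under 0.05 in the higher direction, with summed levels of 710 to 860 in o-nitroanisole cortex and 464 to 533 in corn oil cortex. Of the collecting duct markers, 9 of 11 tested did, with sums of 230 to 257 in o-nitroanisole cortex and 188 to 206 in corn oil cortex. Of the medulla markers, 2 of 4 tested were lower at that p and 0 higher, with sums of 499 to 553 in o-nitroanisole cortex and 576 to 660 in corn oil cortex. Umod and Aqp1 were the brightest medulla markers, and Hba-a1 and Hbb the brightest red blood cell markers. Of the RNA quality and housekeeping genes, 3 of 10 were higher and 0 lower, with sums of 1410 to 1530 in o-nitroanisole cortex and 1360 to 1400 in corn oil cortex, and Hprt1 passed the adjusted threshold with limma's trend and robust options (difference 0.43 ± 0.06 log2, adjusted p = 0.0248). Macrophage and monocyte markers had 1 of 7 tested higher and 0 lower, and lymphocyte markers 0 of 7 in either direction. With limma's trend and robust options, 3 of 11 collecting duct and 3 of 10 red blood cell markers also passed the adjusted threshold. So did 2 of 14 proximal tubule and 1 of 7 macrophage and monocyte markers, beside 1.61% of all features. Of the medulla markers 0 of 4 did, and of the lymphocyte markers 0 of 7. The part of these lists in the repair genes' differences was not tested.

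The promoters of the 5 genes with the largest differences among the 8 are printed so that the motif counts can be read against the letters. Each runs from 250 bases before to 50 bases after the gene's start, 5′ to 3′ on the gene's strand (RefSeq, build GRCr8). Capitals mark the xenobiotic response element (XRE) core GCGTG, the letters bound by the aryl hydrocarbon receptor, or its opposite-strand reading CACGC.
Apex1, chr15:26617976-26618275, plus strand: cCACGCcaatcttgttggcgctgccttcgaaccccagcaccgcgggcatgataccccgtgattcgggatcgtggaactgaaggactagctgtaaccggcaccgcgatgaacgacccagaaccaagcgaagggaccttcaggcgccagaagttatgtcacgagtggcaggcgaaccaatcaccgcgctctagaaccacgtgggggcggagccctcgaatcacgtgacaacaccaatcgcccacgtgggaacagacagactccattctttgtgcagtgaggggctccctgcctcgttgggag
Mgmt, chr1:201140582-201140881, plus strand: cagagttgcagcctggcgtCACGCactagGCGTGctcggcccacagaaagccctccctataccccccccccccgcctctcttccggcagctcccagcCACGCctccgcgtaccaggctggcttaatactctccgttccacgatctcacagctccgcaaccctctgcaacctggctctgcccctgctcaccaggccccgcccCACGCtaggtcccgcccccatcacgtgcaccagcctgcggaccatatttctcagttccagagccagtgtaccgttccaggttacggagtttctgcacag
Neil1, chr8:66451901-66452200, minus strand: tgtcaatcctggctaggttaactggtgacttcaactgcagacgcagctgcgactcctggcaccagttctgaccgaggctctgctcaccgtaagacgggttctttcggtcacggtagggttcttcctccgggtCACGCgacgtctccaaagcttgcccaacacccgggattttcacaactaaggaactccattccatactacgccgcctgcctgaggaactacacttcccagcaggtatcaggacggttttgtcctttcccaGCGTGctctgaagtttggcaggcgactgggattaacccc
Ung, chr12:48153996-48154295, minus strand: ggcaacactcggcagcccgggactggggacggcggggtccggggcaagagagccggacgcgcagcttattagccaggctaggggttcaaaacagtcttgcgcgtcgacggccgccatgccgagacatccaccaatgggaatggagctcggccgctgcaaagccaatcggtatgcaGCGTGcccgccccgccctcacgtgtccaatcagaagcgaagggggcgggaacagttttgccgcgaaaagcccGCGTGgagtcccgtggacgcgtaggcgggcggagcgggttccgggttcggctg
Mpg, chr10:15906875-15907174, minus strand: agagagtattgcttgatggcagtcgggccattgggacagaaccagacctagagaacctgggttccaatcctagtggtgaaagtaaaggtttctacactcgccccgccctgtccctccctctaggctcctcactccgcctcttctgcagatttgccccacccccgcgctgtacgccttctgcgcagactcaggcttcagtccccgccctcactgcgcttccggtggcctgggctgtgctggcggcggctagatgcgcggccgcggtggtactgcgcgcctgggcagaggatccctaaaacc
Of the 8 genes, 7 had a promoter in the table (Xpa had none), and the XRE core was found in those of Apex1, Mgmt, Neil1 and Ung. It was present in 16 of the 24 tested repair genes with a promoter, and in 29.7% of 33469 promoters of this length. The GC box GGGCGG was present in 17 of the 24 (33.1% of all promoters), the antioxidant response core TGACNNNGC in 3 of the 24 (12.1% of all) and the E2F motif TTTCCCGC in 0 of the 24 (0.974% of all). Both strands were searched, and in 0 of the 24 did an XRE core share bases with another of these motifs. The counts describe the letters in the window only.

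Of the base excision enzymes that process the site once the base is gone, Apex1 differed most. Apex1 encodes APE1, the endonuclease that cuts the DNA backbone at an abasic site. Its values were 5.27, 5.19 and 5.25 in o-nitroanisole cortex, against 4.67, 4.75 and 4.64 in corn oil cortex. The groups did not overlap, and all 3 o-nitroanisole arrays read high. The difference was 0.55 ± 0.06 log2, or 1.47-fold, with a 95% interval of 0.40 to 0.70 log2 and an adjusted p of 0.0723 in limma. By p value it ranked 61 among the 32428 features. A second probe for Apex1 gave 4.12, 3.96 and 4.02 in o-nitroanisole cortex and 3.44, 3.46 and 3.33 in corn oil cortex, a difference of 0.62 log2. Apex1 passed the threshold with limma's trend and robust options (adjusted p = 0.0229), and when features without a symbol were left out (adjusted p = 0.0440, where 0.262% of features passed). These were the 2 of 14 alternatives in which it passed. Its limma adjusted p was 0.104 with quantile scaling (difference 0.46 log2) and 0.0629 with normexp (0.37 log2). With replicate number as a block it was 0.187, and without the background filter 0.26. With limma's defaults it was 0.132 to 0.193 once any 1 array was dropped. In the trend and robust fit the adjusted p was 0.0662 once corn oil replicate 1 was dropped and 0.0536 to 0.0685 once any o-nitroanisole array was dropped, all over the threshold. Dropping corn oil replicate 2 gave 0.0424 and dropping corn oil replicate 3 gave 0.0452, both under it.

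The other strand-processing enzymes had smaller differences. Polb, the polymerase that fills the gap, read -1.19, -1.24 and -1.10 in o-nitroanisole cortex and -0.96, -1.10 and -0.83 in corn oil cortex. Its groups met at -1.10, and the difference was -0.21 ± 0.09 log2 (95% interval -0.43 to 0.01, limma adjusted p = 0.285). Parp1, the enzyme that marks strand breaks, read 3.30, 3.37 and 3.30 in o-nitroanisole cortex and 3.21, 3.31 and 3.23 in corn oil cortex. The Parp1 groups overlapped, with a difference of 0.08 ± 0.06 (-0.07 to 0.23). Xrcc1, the scaffold that holds the repair complex together, gave a difference of -0.02 ± 0.05 (-0.15 to 0.12), all values between 2.23 and 2.29.

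Among the glycosylases, which cut out the damaged base, 3 of 7 tested were higher at an unadjusted p under 0.05 (11.8% of all features). Neil1, which removes oxidised pyrimidines, read -1.17, -1.17 and -1.39 in o-nitroanisole cortex, against -1.68, -1.70 and -1.57 in corn oil cortex. The Neil1 groups did not overlap, and the difference was 0.40 ± 0.09 log2 (limma adjusted p = 0.127). Ung, the uracil glycosylase, read 1.19, 1.22 and 1.18 in o-nitroanisole cortex, against 0.82, 1.01 and 0.57 in corn oil cortex. Its o-nitroanisole values lay within 0.04 of each other and its corn oil values spread over 0.44, and the difference was 0.40 ± 0.12 (limma adjusted p = 0.172). Mpg, which removes alkylated purines, read 1.46, 1.34 and 1.37 in o-nitroanisole cortex, against 1.14, 1.22 and 1.03 in corn oil cortex. The Mpg groups did not overlap, the difference was 0.26 ± 0.08 (limma adjusted p = 0.167) and a second probe gave 0.22. Under normexp background correction the difference for Mpg was 0.08, and without corn oil replicate 3 that for Ung was 0.29.

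The genes that deal with 8-oxoguanine, the oxidation product of guanine, were not among those higher. Ogg1, which excises 8-oxoguanine, read 0.79, 0.73 and 0.75 in o-nitroanisole cortex and 0.83, 0.84 and 0.79 in corn oil cortex. All 3 o-nitroanisole values were below all 3 corn oil values, although the nearest 2 both round to 0.79, and the difference was -0.07 ± 0.06 log2 (95% interval -0.20 to 0.07, limma adjusted p = 0.554). With normexp background correction it was -0.18, at an unadjusted limma p of 0.0123 and an adjusted p of 0.137. A second Ogg1 probe gave a difference of 0.00, and its groups overlapped. Mutyh, which removes adenine paired with 8-oxoguanine, gave -0.06 ± 0.07 (-0.22 to 0.10), with its probes at -0.06 and -0.30. Nudt1, which clears oxidised nucleotides from the pool and belongs to the wider set described further on, gave -0.09 ± 0.07. Nthl1, which removes oxidised pyrimidines as Neil1 does, gave 0.03 ± 0.07 (-0.14 to 0.20), and Smug1, a further uracil glycosylase, 0.14 ± 0.13 (-0.18 to 0.47). The difference between these genes and the 3 higher ones was not tested.

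Neil2, another glycosylase for oxidised bases, was not tested, since neither of its probes was well above background on all arrays of a group. Its brighter probe read -5.64, -5.72 and -5.89 in o-nitroanisole cortex and -6.43, -5.65 and -6.60 in corn oil cortex and was well above background on 1 array of each group. No fold is given for it.

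**Figure D1:**
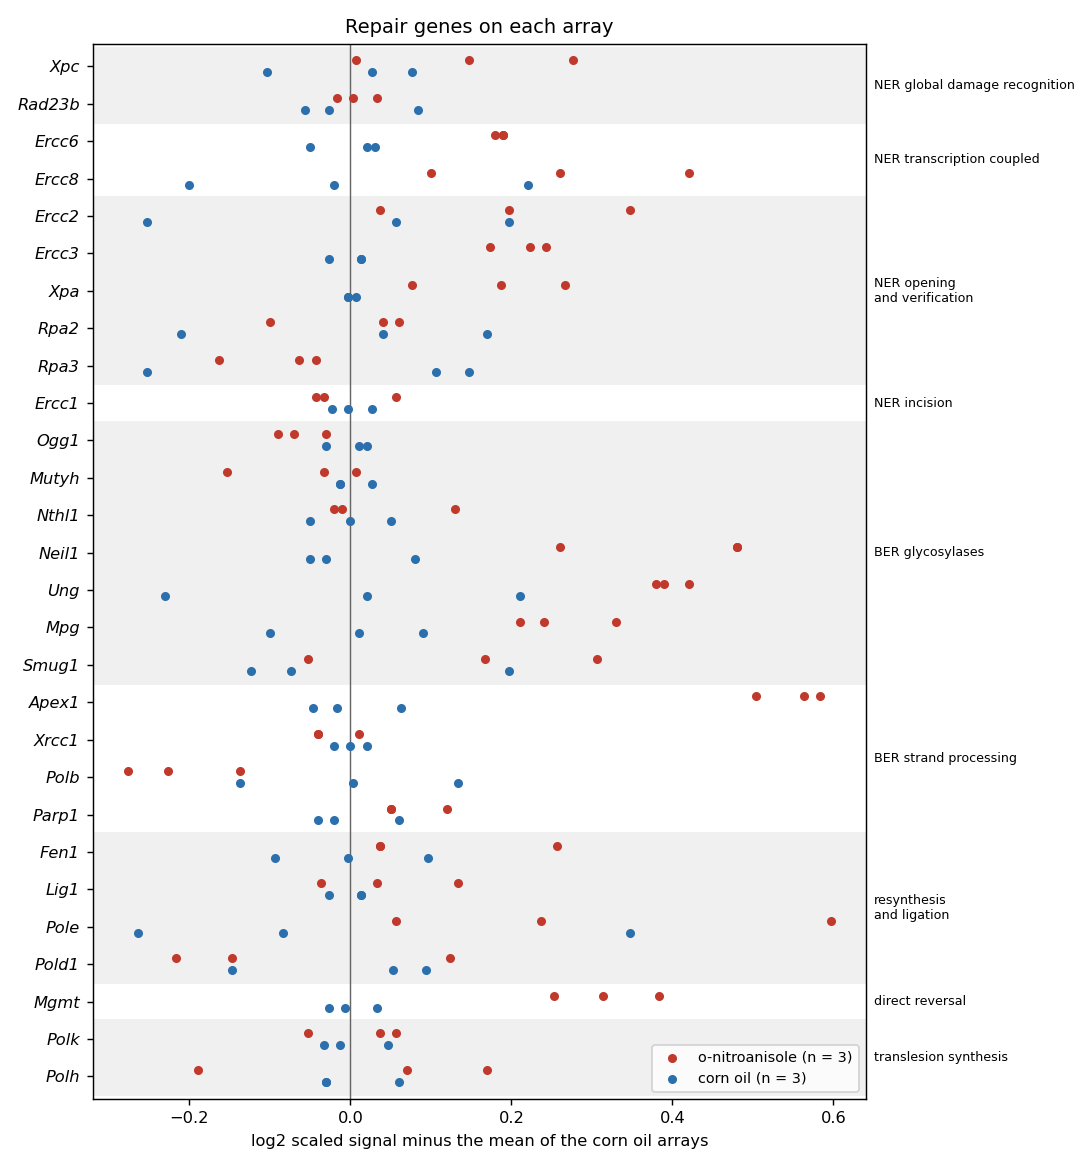
Log2 scaled signal of the 28 tested repair genes on each array, minus the mean of the corn oil arrays (x axis), with o-nitroanisole in red above corn oil in blue, 3 arrays each, and genes grouped by repair step. The Apex1 values of o-nitroanisole cortex (5.19 to 5.27) stand clear of those of corn oil cortex (4.64 to 4.75), while the dim gene Pole spreads widely in both groups.

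Nucleotide excision repair was represented by 10 tested genes of 15 listed, with a median difference of 0.16 log2, beside 0.08 over the 11 tested base excision genes. At an unadjusted p under 0.05, 3 of the 10 and 4 of the 11 were higher, beside 11.8% of all features. The comparison between the routes was not tested. Ercc3, the XPB helicase of TFIIH that opens the DNA, read 3.40, 3.35 and 3.42 in o-nitroanisole cortex and 3.19, 3.15 and 3.19 in corn oil cortex. The Ercc3 groups did not overlap, the difference was 0.21 ± 0.06 log2 (limma adjusted p = 0.154) and a second probe gave 0.20. Xpa, which verifies the damage, read 0.48, 0.40 and 0.29 in o-nitroanisole cortex, against 0.21, 0.21 and 0.22 in corn oil cortex. The corn oil values of Xpa lay within 0.01 of each other and the o-nitroanisole values spread over 0.19, with a difference of 0.18 ± 0.07 (limma adjusted p = 0.251). Its unadjusted p was under 0.05 in 6 of 14 alternatives, and with normexp background correction the difference was 0.10. Ercc2, the other TFIIH helicase, gave 0.19 ± 0.14 (95% interval -0.16 to 0.55).

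Transcription-coupled repair is entered through Ercc6 and Ercc8, which act where RNA polymerase has stalled at a lesion. Ercc6 read -0.33, -0.34 and -0.33 in o-nitroanisole cortex, against -0.50, -0.49 and -0.57 in corn oil cortex. The difference was 0.19 ± 0.06 log2 (limma adjusted p = 0.170), its 3 probes gave 0.19, 0.15 and -0.16, and their average gave 0.06. Ercc8 read -0.42, -0.74 and -0.58 in o-nitroanisole cortex and -0.62, -0.86 and -1.04 in corn oil cortex. The Ercc8 groups overlapped, the difference was 0.26 ± 0.14, and its probes gave 0.42, 0.26 and -0.22. For both genes the direction differed between probes.

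Global damage recognition and incision were each represented by 1 or 2 tested genes. Xpc, the main damage sensor, read 0.69, 0.56 and 0.42 in o-nitroanisole cortex and 0.49, 0.44 and 0.31 in corn oil cortex. The Xpc groups overlapped, with a difference of 0.14 ± 0.10 log2 (95% interval -0.09 to 0.38), and its partner Rad23b gave 0.01 ± 0.06 (-0.15 to 0.17). Ercc1, the partner of the nuclease that cuts on the 5′ side, read 1.23, 1.32 and 1.22 in o-nitroanisole cortex and 1.26, 1.24 and 1.29 in corn oil cortex. The interval of the Ercc1 difference was -0.16 to 0.14, and with normexp background correction the difference was -0.15 (limma adjusted p = 0.231). The single-strand binding subunits Rpa2 and Rpa3 gave 0.00 ± 0.12 and -0.09 ± 0.12.

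Of the enzymes that refill and seal the gap, Fen1 (flap removal) gave a difference of 0.11 ± 0.09 log2, Lig1 (ligase) 0.04 ± 0.07 and Pold1 (polymerase delta) -0.08 ± 0.12. Pole, the catalytic subunit of polymerase epsilon, read -4.89, -4.53 and -5.07 in o-nitroanisole cortex and -5.21, -4.78 and -5.39 in corn oil cortex. The Pole groups overlapped, and the difference was 0.29 ± 0.21 with a wide interval (-0.22 to 0.81). These 4 enzymes also serve DNA replication. Of the proliferation markers, 15 tested of 18 listed, 0 had an unadjusted p under 0.05 in either direction. Their median difference was -0.05 log2, with summed levels of 9.93 to 13.4 in o-nitroanisole cortex and 10.0 to 13.6 in corn oil cortex.

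**Figure D2:**
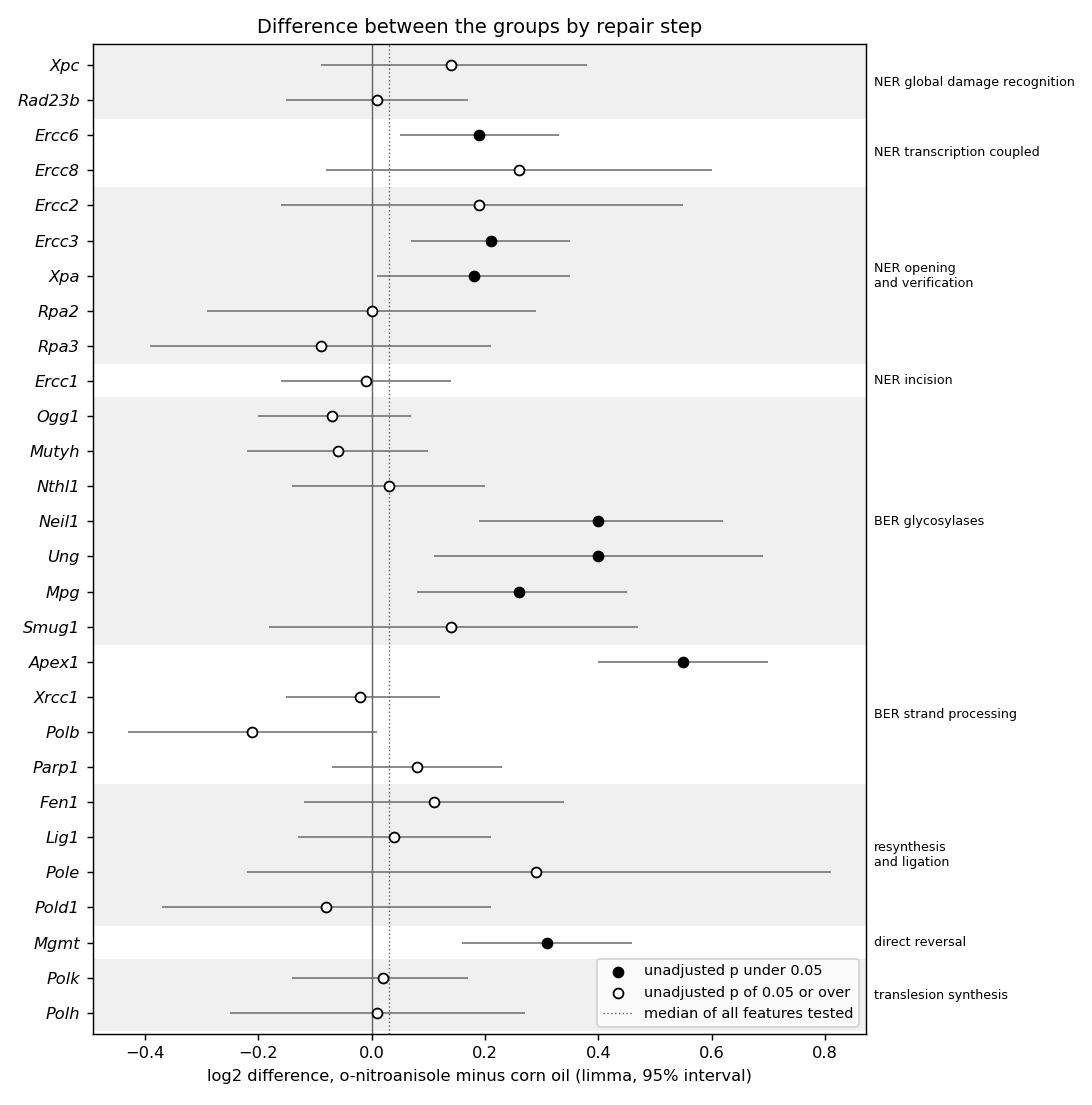
Log2 difference, o-nitroanisole minus corn oil (x axis), for each tested repair gene with its 95% interval from limma, grouped by repair step. Filled points have an unadjusted p under 0.05, and the dotted line is the median of all features at 0.03; the interval of Apex1 (0.40 to 0.70) lies farthest to the right of it.

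Mgmt repairs O6-alkylguanine directly by taking the alkyl group onto itself. Its values were 2.08, 2.21 and 2.14 in o-nitroanisole cortex, against 1.86, 1.82 and 1.80 in corn oil cortex. The groups did not overlap, and the difference was 0.31 ± 0.06 log2 (1.24-fold, 95% interval 0.16 to 0.46, limma adjusted p = 0.116). With the trend and robust options its adjusted p was 0.0483, and 0.0838 to 0.151 when any 1 array was also dropped. The translesion polymerases copy across damage left in the template. Polk read -0.20, -0.18 and -0.29 in o-nitroanisole cortex and -0.25, -0.27 and -0.19 in corn oil cortex, overlapping groups with a difference of 0.02 ± 0.06 (-0.14 to 0.17). Polh gave 0.01 ± 0.11 (-0.25 to 0.27).

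For 14 of the 28 genes more than 1 probe was tested, and by sign alone the probes pointed the same way for 11. Some of these probes lay near 0, among them the second probes of Ogg1 (0.00), Fen1 (0.01) and Xpc (0.01). The probes of Ercc1, Ercc6 and Ercc8 pointed both ways. Of the 8 higher genes, Apex1 (0.55 and 0.62), Mpg (0.26 and 0.22) and Ercc3 (0.21 and 0.20) had a second probe close to the first.

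**Figure D3:**
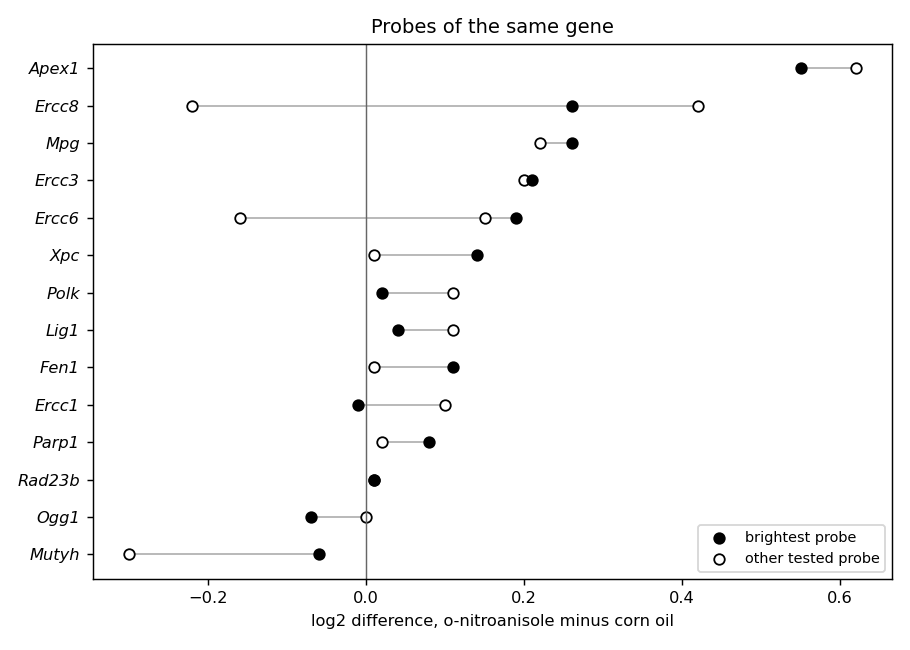
Log2 difference, o-nitroanisole minus corn oil (x axis), for each tested probe of the 14 repair genes with several tested probes; filled points are the brightest probe, which stands for the gene. The probes of Ercc8 run from -0.22 to 0.42, while those of Ercc3 lie at 0.20 and 0.21.

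The wider set of 47 repair genes, which holds further TFIIH, clamp loader, polymerase and break-processing genes, had 40 tested members, and 0 passed the adjusted threshold in either fit. At an unadjusted p under 0.05, 3 of the 40 were higher, against 11.8% of all features, and 1 was lower, against 7.12% of all features, so neither share was above that of all features. Mad2l2, which works with the translesion polymerase zeta, read -3.17, -3.20 and -3.46 in o-nitroanisole cortex and -4.04, -3.80 and -3.73 in corn oil cortex. The Mad2l2 groups did not overlap, with a difference of 0.58 ± 0.12 log2 (limma adjusted p = 0.122). Gtf2h5, the small TFIIH subunit, read 2.74, 2.75 and 2.79 in o-nitroanisole cortex, against 2.52, 2.55 and 2.51 in corn oil cortex, a difference of 0.23 ± 0.05 (limma adjusted p = 0.137). Alkbh2, which reverses alkyl damage, read 2.73, 2.76 and 2.67 in o-nitroanisole cortex, against 2.57, 2.59 and 2.58 in corn oil cortex, a difference of 0.14 ± 0.06. Both genes had groups that did not overlap. Parp3, a relative of Parp1, read -1.10, -0.72 and -0.90 in o-nitroanisole cortex and -0.39, -0.73 and -0.14 in corn oil cortex. The Parp3 groups overlapped, with a difference of -0.49 ± 0.18 (limma adjusted p = 0.226). The other tested TFIIH subunits gave 0.30 ± 0.18 for Gtf2h4, 0.14 ± 0.07 for Gtf2h2, -0.11 ± 0.08 for Gtf2h3, 0.01 ± 0.05 for Ccnh and -0.07 ± 0.08 for Mnat1.

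Xpc and Ddb2 are known p53 targets in human cells. Of 14 tested p53 targets outside repair, 4 were higher at an unadjusted p under 0.05 (11.8% of all features) and 0 lower (7.12% of all features), with a median difference of 0.13 log2. The 4 were Aen, an exonuclease gene, at 0.55 ± 0.05 log2, Ccng1, a cyclin gene, at 0.42 ± 0.09, Zmat3 at 0.34 ± 0.13 and Mdm2, whose product degrades p53, at 0.23 ± 0.07. Aen had a limma adjusted p of 0.0711 with the defaults and 0.0201 with the trend and robust options, where it was the 1 gene of the 14 that passed. Cdkn1a, the p21 inhibitor, lay at -0.04 ± 0.11. The summed level of the 14 was 87.3 to 96.8 in o-nitroanisole cortex and 83.6 to 85.9 in corn oil cortex. The brightest of the 14, which weigh most in that sum, were Perp (difference 0.08 ± 0.07 log2) and Cdkn1a.

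**Figure D4:**
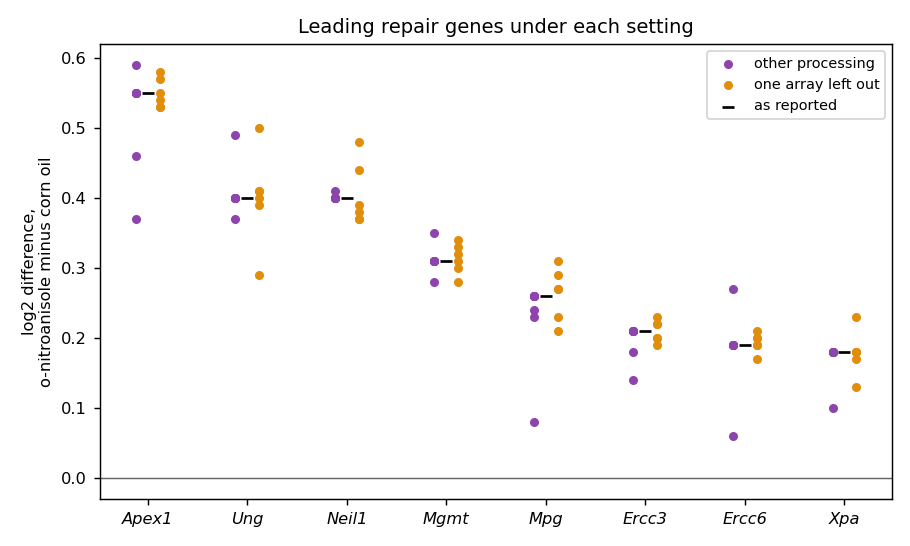
Log2 difference, o-nitroanisole minus corn oil (y axis), of the 8 genes with an unadjusted p under 0.05, as reported (bar), under other processing (purple) and with 1 array left out (orange). All points lie above 0, and Apex1 ranges from 0.37 to 0.59. Leaving out 1 array could not bring a point below 0, since the groups of these genes did not overlap.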

How the data were processed

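Spot intensities came from scanner files that the authors made with Agilent Feature Extraction, whose version was 10.7 per the submitters' processing notes. Background subtraction and detrending gave the processed signal, per the file headers. The deposited value table holds a ratio, processed signal over the array's 75th percentile, and its corn oil columns match corn oil scanner files of other replicate numbers, so those numbers are not settled. The log2 ratio to that percentile was recomputed from the scanner files. Outlier spots were set to missing. RefSeq accessions named 27460 of 33356 accession-bearing probes. Probes were tested if detected (well above background) on all arrays of either group, and the brightest probe stood for a gene, giving 32428 features. Tests used lmFit and eBayes of limma 3.58.1 (R 4.3.3), adjusted by Benjamini-Hochberg over all features; figures used matplotlib 3.10.9 in Python 3.11.15. The fit was tested on simulated data with added changes larger than any difference of the repair genes, so that test does not cover changes of their size. Alternatives were 14, covering moderation, scaling, background, dim filter, value table, probe choice, replicate block and arrays left out, and 6 were added after seeing the data. The genes and lists were chosen with earlier results of these data known. Array values are given for genes with non-overlapping groups and an unadjusted p under 0.05, the largest difference of each step, dim genes, 7 set genes (Ogg1, Mgmt, Xpc, Xpa, Ercc1, Polb and Parp1; Ddb2 was also set and was not matched), and up to 4 wider-set genes per direction. With 3 arrays per group, precision is limited.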

Additional observations from a re-analysis of the deposited data

How the results depend on the processing

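The 8 repair genes stayed higher in all 14 alternatives, but only quantile scaling, normexp and probe averaging could have changed that direction. Moderation, dim filter, symbols-only and replicate block settings leave each difference as it was, and the value table holds the same ratios. Since the groups of the 8 genes did not overlap, leaving out 1 array could not reverse them. Xpa kept an unadjusted p under 0.05 in 6 of the 14, Ercc6 in 12, Mpg in 13 and the others in 14. The count of such genes lay between 6 and 8. Features called were 522 with the trend and robust options, 90 with normexp, 31 with symbols only, and 0 to 67 on leaving out 1 array in either fit. Repair genes called were 2 with trend and robust, 1 with symbols only, and 0 to 1 on leaving out 1 array. Repair genes lower at an unadjusted p under 0.05 were 2 with normexp (Ogg1 and Ercc1), 1 with the replicate block (Polb) and 0 to 2 on leaving out 1 array, the 2 (Polb and Rpa3) without corn oil replicate 2. The median over the repair genes was 0.052 with quantile scaling, 0.053 with normexp and 0.063 with probes averaged. It ran from 0.057 to 0.106 when 1 array was left out. Over all features the median was 0.005 with quantile scaling, 0.004 with normexp and 0.026 with probes averaged, beside 0.028 as reported. Over features with a symbol only the median was 0.042, beside 0.093 over the repair genes in that setting. The repair genes' median was lowest without o-nitroanisole replicate 2 and 0.063 without corn oil replicate 3. Genes near 0 changed sign: Rad23b at -0.0614 with quantile scaling, Rad23b -0.0001, Rpa2 0.0039, Nthl1 -0.0198, Xrcc1 0.0941 and Parp1 -0.0354 with normexp, and Ercc1 0.0475 with probes averaged. On leaving out 1 array, Rad23b ran from -0.0235 to 0.0497, Rpa2 from -0.1068 to 0.0860, Ercc1 from -0.0415 to 0.0102, Nthl1 from -0.0175 to 0.0558, Lig1 from -0.0049 to 0.0817, Polk from -0.0049 to 0.0487 and Polh from -0.0635 to 0.1158. The cause was not tested, except that the symbols-only setting tests fewer features by construction. The replicate block called 0 features and moved no adjusted call; same-numbered arrays deviated together with r of 0.091, 0.059 and 0.026, so the numbers are not shown to pair rats. A slide block could not be fitted. Dropping arrays in the trend and robust fit was added after seeing the data. Signal near background limits dim genes such as Neil2 and Pole.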
